A study of Mus musculus with 2 samples.

Results

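The GDNF family ligands and receptors were described in RNA from dorsal root ganglion (DRG) sensory neuron preparations of C57BL/6J mice, labelled C57BL/6 in the deposit. They are 9 of the 24411 genes in the data. Their rows were taken by gene symbol, and the members were chosen with earlier results of these data known. The members are the receptor tyrosine kinase gene Ret, the co-receptor genes Gfra1, Gfra2, Gfra3 and Gfra4, and the ligand genes Gdnf, Nrtn, Artn and Pspn. Together they have 23 of the 35034 RefSeq transcript rows. Each group was 1 library made from the pooled neurons of 10 mice, so no value below has an error between mice, no test between the groups was possible, and no difference has a replicate check. The alum-injected group received alum, an aluminium adjuvant, on days 0 and 14. The alum + KLH-immunized group received alum with keyhole limpet hemocyanin (KLH), a mollusc protein used as a foreign antigen, on the same days, and the DRGs of both groups were taken on day 28. The mice were males bought at 6 to 8 weeks of age. The deposited title of the control calls it both naïve and alum alone, and it is treated here as alum-injected. The libraries of these groups are called the alum pool and the alum + KLH pool. All preparations were enriched for neurons and depleted of B lymphocytes with beads.

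Values are in TPM, a unit that corrects the reads of a transcript for its length and sets each library to the same total, so that levels can be compared between genes of a library. TPM was summed over the transcripts of a gene. A gene was called detected above 3 TPM, the threshold used in the study. The study states a minimum number of reads per library, but TPM keeps no read number, so the number of reads behind a single value is not known.

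The GDNF family ligands are growth factors that sensory neurons receive mainly from the tissues they innervate and from glia. A ligand dimer binds a GFRα co-receptor, which is held on the outer membrane by a lipid anchor, and the complex then engages RET, whose kinase domain signals inside the cell. Each ligand has a preferred co-receptor: GDNF binds GFRα1, neurturin (Nrtn) GFRα2, artemin (Artn) GFRα3 and persephin (Pspn) GFRα4. In DRG, RET is known from nonpeptidergic nociceptors, from low-threshold mechanoreceptors and from some large-diameter neurons, while GFRα3 is known from peptidergic nociceptors.

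Several of the results below are about which transcript of a gene carried the signal, so the sequences that tell these transcripts apart are shown first. They were cut from GENCODE M21 transcript models of GRCm38, the assembly also called mm10, and are written 5′ to 3′ on the sense strand. The 2 Ret transcripts share their first 3190 coding bases and then end differently. In the lines below, the last 20 shared bases are in lower case and the part specific to each transcript, stop codon included, is in capitals. Ret9 (NM_001080780) reads on into the sequence that follows the last shared exon, at chr6:118155256-118155287 on the minus strand. Ret51 (NM_009050) is spliced to a further exon, whose coding part is chr6:118153853-118154010.
Ret9: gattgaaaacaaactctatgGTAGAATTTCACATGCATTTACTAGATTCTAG
Ret51: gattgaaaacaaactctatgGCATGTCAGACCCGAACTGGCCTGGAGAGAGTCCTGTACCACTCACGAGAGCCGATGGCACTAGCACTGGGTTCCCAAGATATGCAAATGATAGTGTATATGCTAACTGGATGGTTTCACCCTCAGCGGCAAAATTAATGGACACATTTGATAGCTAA
The names Ret9 and Ret51 refer to the number of amino acids in the tail specific to each protein. RET51 carries a tyrosine docking site in its tail that RET9 lacks, and the proteins are known to differ in the adaptors they recruit and in their turnover.

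The coding sequences of the Gfra1 transcripts differ by a 15-base exon at chr19:58392573-58392587 on the minus strand, shown in capitals with 25 bases on each side. The second line is the same junction without it. Outside the coding sequence the models differ as well: that of NM_010279 has 11 exons and 4641 bases, that of NM_001285457 9 exons and 4415 bases.
Gfra1 with the small exon, NM_010279: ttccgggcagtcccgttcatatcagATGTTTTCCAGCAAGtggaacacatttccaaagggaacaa
Gfra1 without the small exon, NM_001285457: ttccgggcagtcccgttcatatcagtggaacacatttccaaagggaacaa
In Gfra2, NM_001302095 skips 2 coding exons that NM_008115 includes, chr14:70895772-70896086 and chr14:70901489-70901572, which together hold 399 coding bases. The 25 bases that end the first coding exon are in lower case, and the 25 that follow them in each transcript are in capitals.
Gfra2 long form, NM_008115: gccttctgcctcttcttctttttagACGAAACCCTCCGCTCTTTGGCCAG
Gfra2 skipped form, NM_001302095: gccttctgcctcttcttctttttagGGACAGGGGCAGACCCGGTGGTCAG
The 4 transcripts of Gfra4 combine 2 first coding exons with 2 last coding exons. The first coding exons are shown in capitals, followed by 20 bases of the exon that both join. The distal one is at chr2:131043043-131043088 and the proximal one at chr2:131042610-131042682, on the minus strand.
Gfra4 distal start: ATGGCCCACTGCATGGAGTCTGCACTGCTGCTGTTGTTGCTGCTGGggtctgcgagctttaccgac
Gfra4 proximal start: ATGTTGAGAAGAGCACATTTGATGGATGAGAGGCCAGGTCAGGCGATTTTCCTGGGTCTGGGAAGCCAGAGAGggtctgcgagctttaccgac

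The receptor genes were detected and the ligand genes were not. All 5 receptor genes were above 3 TPM in both pools, and 0 of the 4 ligand genes was. Gfra4 and Gdnf lie closest to the threshold: with 10 TPM, Gfra4 was lost and 4 members passed in each pool, and with 1 TPM, Gdnf was gained in the alum + KLH pool. On its highest transcript alone, Gfra4 was below 3 TPM in the alum + KLH pool. Of all genes, 46.9% were above 3 TPM in the alum pool and 46.3% in the alum + KLH pool. The ligands summed to 1.06 TPM in the alum pool and 1.07 TPM in the alum + KLH pool, against 245.8 and 238.6 TPM for the 4 co-receptors. The 6 highest members, from Ret through Gfra1, Gfra2, Gfra3 and Gfra4 to Gdnf, had the same order in both pools. With 1 library per group, the steps in this order have no replicate spread to be judged against. The narrowest step between receptor genes was from Gfra1 to Gfra2, a ratio of TPM of 1.25 in the alum pool and 1.48 in the alum + KLH pool.

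**Figure D1:**
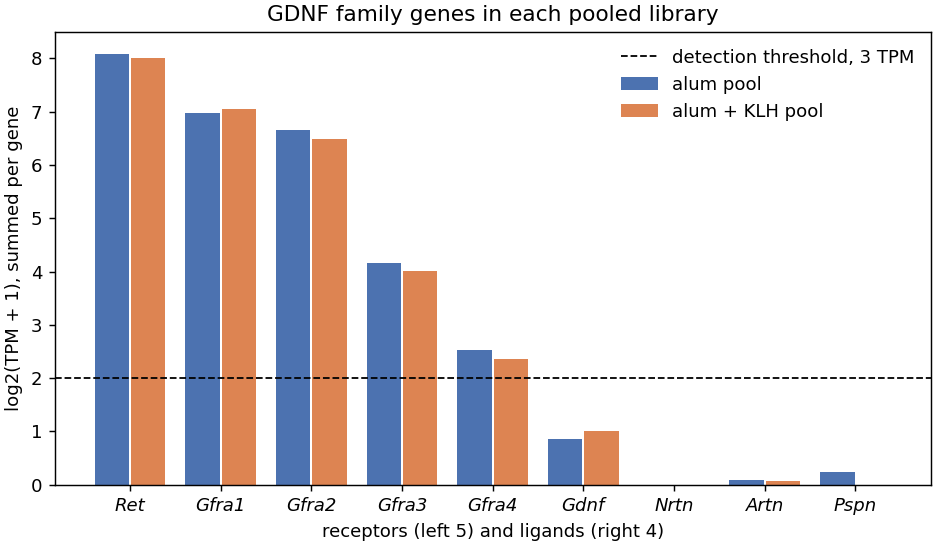
Bars give log2(TPM + 1), summed per gene, in the alum pool (blue) and the alum + KLH pool (orange), 1 library each and therefore without error bars. All 5 receptor genes stand above the dashed line at 3 TPM in both pools and all 4 ligand genes below it.

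Ret, on chr6:118151745-118197718, was the highest member. It was at 270.6 TPM in the alum pool and 255.5 TPM in the alum + KLH pool, and 770 and 819 genes were higher in the same order. Its level was close to that of all co-receptors together: the ratio of Ret TPM to the summed TPM of the Gfra genes was 1.10 and 1.07. Nearly all of the Ret signal was assigned to Ret9, which was at 267.6 and 253.7 TPM, or 98.9% and 99.3% of the gene. Ret51 was at 3.0 TPM in the alum pool, only just over the threshold, and at 1.79 TPM in the alum + KLH pool. Of the 31-base words of the GENCODE model of Ret9, 29.2% are absent from that of Ret51, and 41.7% the other way. These shares also count sequence outside the coding ends shown above, since the models differ at both ends. On the minus strand, that of Ret9 runs from 118197718 to 118154566 and that of Ret51 from 118197133 to 118151745. The RefSeq sequences that the authors used with kallisto were not available here. Neither model shares a 31-base word with another annotated gene in either orientation.

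Gfra1, on chr19:58235604-58455909, encodes the GDNF co-receptor and was at 124.4 TPM in the alum pool and 131.0 TPM in the alum + KLH pool. It made up 50.6% and 54.9% of the summed co-receptor TPM. The form without the small exon was the higher, with 95.9 and 104.9 TPM, or 77.1% and 80.1% of the gene. The form with the exon was at 27.1 and 24.5 TPM. The noncoding row NR_104342 was at 1.45 and 1.63 TPM. The coding forms differ little in sequence: 0.639% of the 31-base words of the model without the exon are absent from the model with it. The other way, the share is 5.51%. Of the words of the models without and with the exon, 8.87% and 8.44% also occur in 1 other annotated gene, in either orientation. The end of Gfra1 overlaps 444 bases of Gm16277, an annotated gene on the opposite strand that has no row in the data. Whether the quantification used strand is not given in the sources used here.

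Gfra2, on chr14:70890120-70979838, encodes the neurturin co-receptor and was at 99.7 TPM in the alum pool and 88.3 TPM in the alum + KLH pool. Its share of the summed co-receptor TPM was 40.6% and 37.0%. The form that skips 2 exons, NM_001302095, was the highest transcript in both pools, at 50.36 and 50.98 TPM. The long form NM_008115 was at 40.0 and 31.9 TPM, and NM_001302094 at 9.30 and 5.44 TPM. The skipped form thus differed by little between the pools, and the lower total of the alum + KLH pool lay in the other transcripts. The annotation pairs NM_008115 and NM_001302094 with the same model, so their exons could not be told apart here. The model of the skipped form is 1323 bases long and that of the long form 3472. Of the 31-base words of the skipped form, 2.17% are absent from the long one, and 62.9% the other way. Of the words of the long-form model, 1.67% also occur in other genes, 3527 in number, while the skipped form shares none.

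Gfra3, the artemin co-receptor gene on chromosome 18, has a single transcript and was at 17.0 TPM in the alum pool and 15.1 TPM in the alum + KLH pool. Gfra2 was 5.87 and 5.86 times as high. Gfra4, the persephin co-receptor gene on chr2:131039632-131043088, was the lowest receptor gene, at 4.75 and 4.13 TPM. Gfra3 and Gfra4 made up 6.91% and 1.93% of the summed co-receptor TPM in the alum pool and 6.32% and 1.73% in the alum + KLH pool.

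The Gfra4 total was assigned to different transcripts in the pools. In the alum pool NM_001271001 was at 3.85 TPM, NM_001136063 at 0.904 TPM and both transcripts with the proximal start were listed at 0. In the alum + KLH pool NM_001271001 was at 1.39 TPM, NM_001271002 at 1.20 TPM, NM_001136063 at 0.825 TPM and NM_020014 at 0.721 TPM. Summed by first coding exon, the distal start went with 4.75 TPM in the alum pool and 2.22 TPM in the alum + KLH pool, and the proximal start with 0 and 1.92 TPM, or 46.4% of the gene in the latter. Every 31-base word of 3 of the 4 Gfra4 models, all but that of NM_001136063, also occurs in another Gfra4 model. The part of this shared sequence in the split between transcripts was not tested. The microRNA gene Mir6973b lies within Gfra4 on the same strand and was at 5.37 TPM in the alum pool and listed at 0 in the other.

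**Figure D2:**
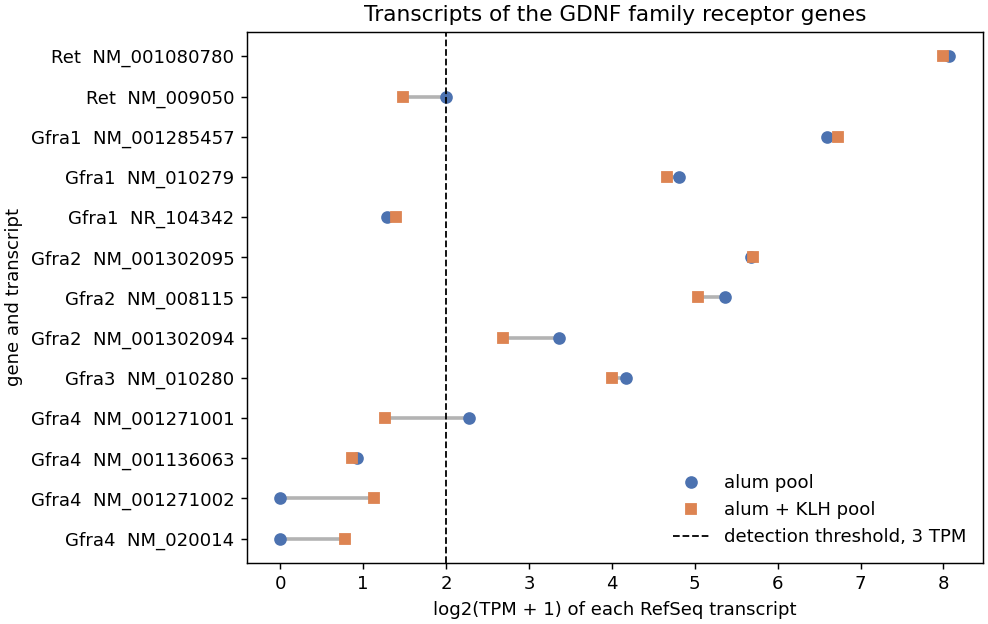
Each row is a RefSeq transcript of a receptor gene, with log2(TPM + 1) in the alum pool as a circle and in the alum + KLH pool as a square, 1 library each. Ret9 (NM_001080780) lies far above Ret51 (NM_009050), and the 2 Gfra4 transcripts with the proximal start are at 0 in the alum pool only.

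Among the ligand genes, Gdnf, on chr15:7810846-7837575, was the highest at 0.822 TPM in the alum pool and 1.02 TPM in the alum + KLH pool. All of it was assigned to NM_001301357, and its 3 other transcripts were listed at 0. The annotation pairs all 4 Gdnf transcripts with the same model, so how far they can be told apart was not examined. Nrtn, on chr17:56751325-56757530, was listed at 0 in both pools. Artn, on chr4:117926162-117929763, was at 0.0593 and 0.0475 TPM. Pspn, on chr17:56999457-57000018, was at 0.179 TPM in the alum pool and listed at 0 in the other. Of the 10 ligand transcripts, 7 were listed at 0 in each pool. Since 22.9% and 22.6% of all genes were listed at 0, and the reads behind each row are not known, these values place the ligands below the threshold and do not show that they are absent.

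The comparison between the pools sets the library of KLH-immunized mice against that of mice given alum alone. For each gene the log2 of (TPM + 1) in the alum pool was subtracted from that in the alum + KLH pool, and this log2 ratio understates differences of low genes because of the added 1 TPM. A difference of at least 2-fold on this scale was counted. Of the 11648 genes that passed 3 TPM in either pool, 1.64% were at least 2-fold apart, 0.695% higher and 0.944% lower in the alum + KLH pool. Of the 191 genes at least 2-fold apart, 127 were listed at 0 in one pool. The 5 receptor genes passed the filter and 0 of them was at least 2-fold apart. The 4 ligand genes did not pass it.

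On the log2 scale, the ratio was -0.08 for Ret, 0.07 for Gfra1, -0.17 for Gfra2, -0.16 for Gfra3 and -0.16 for Gfra4. Gfra1 was thus higher in the alum + KLH pool and the other 4 receptor genes were lower. Among all genes above the filter, 56.4% were lower. The median ratio was -0.16 over the 5 receptor genes and -0.02 over all genes. As a description of how far genes of like abundance differ between the same libraries, the SD of the ratio was taken over the 500 genes closest in mean log2(TPM + 1). It was 0.19 for Ret, 0.12 for Gfra1, 0.14 for Gfra2, 0.36 for Gfra3 and 0.39 for Gfra4. As deposited, only the ratio of Gfra2 was larger than its SD. Rescaled to the median ratio of pan-neuronal genes it was -0.11, smaller than the SD, and on its highest transcript alone it was 0.02. Rescaled to the median ratio of genes above 3 TPM in both pools, Gfra2 was at -0.15, still larger than its SD. With the pan-neuronal rescaling Gfra1 was at 0.13, just over its SD of 0.12, so which receptor gene passes its SD depends on the scaling.

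**Figure D3:**
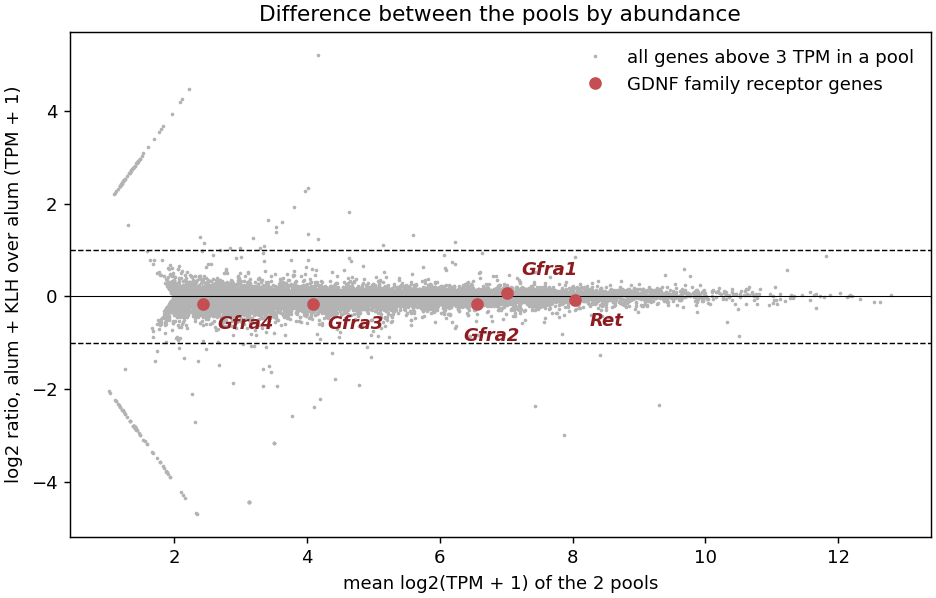
Each grey point is 1 of the 11648 genes above 3 TPM in a pool, placed by its mean log2(TPM + 1) and its log2 ratio of alum + KLH over alum. The 5 receptor genes, in red, lie between -0.17 and 0.07, inside the dashed lines that mark 2-fold.

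Taken transcript by transcript, 9 of the 23 member transcripts were above 3 TPM in a pool and 1 was at least 2-fold apart, against 4.65% of all 14215 transcripts above the filter, 1.86% higher and 2.79% lower in the alum + KLH pool. It was Gfra4 NM_001271001, with a log2 ratio of -1.02 beside an SD of 0.73 among transcripts of like abundance. This transcript passed the filter only in the alum pool, at 3.85 TPM, so it could only be called lower. The largest ratios among the other transcripts above the filter were -0.68 for Gfra2 NM_001302094 and -0.52 for Ret51, both lower in the alum + KLH pool. Ret51 also passed the filter only in the alum pool. Gfra4 NM_001271002 and NM_020014, with ratios of 1.14 and 0.78, were higher in the alum + KLH pool but below 3 TPM in both pools. The skipped form of Gfra2 and the form of Gfra1 without the small exon had ratios of 0.02 and 0.13.

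The neurotrophins and their receptors are the growth factor system most like the GDNF family in these neurons. Ret was higher than their receptor genes Ntrk2, Ntrk3 and Ngfr in both pools. The kinase gene Ntrk2, which encodes the BDNF receptor, was at 94.9 TPM in the alum pool and 95.8 TPM in the alum + KLH pool, and Ntrk3, the receptor gene for neurotrophin-3, at 29.07 and 27.99 TPM. The low-affinity receptor gene Ngfr was at 87.9 and 75.7 TPM. Ret was 2.85 and 2.67 times as high as Ntrk2. The systems differed in their ligands: Bdnf was at 85.3 and 88.3 TPM, while each GDNF family ligand gene was at or under 1.02 TPM. Other neurotrophin genes were low as well, with Ntf3 at 1.03 and 0.993 TPM and Ntf5 at 0.105 and 0.120 TPM. Of the 8 genes in the neurotrophin list, 5 were above 3 TPM and 0 was at least 2-fold apart, where 1.64% of all genes were. GFRAL, a distant co-receptor of RET that binds GDF15, is known from the hindbrain. Its gene was at 0.0623 and 0.107 TPM and Gdf15 was listed at 0.

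Of the 42 genes of the pathway lists above 3 TPM, 0 was at least 2-fold apart, a share near the 1.64% of all genes. The lists hold 59 genes, and 46.9% and 46.3% of all genes were above 3 TPM in the alum pool and the alum + KLH pool. All 5 genes for other GDNF receptors and sorting partners were above 3 TPM, among them Ncam1, an adhesion molecule that binds GDNF with GFRα1, at 57.1 TPM in the alum pool and 54.4 TPM in the alum + KLH pool. In this list Sorl1, a sorting receptor, was at 75.9 and 70.2 TPM, and Cdh2, which encodes N-cadherin, at 70.6 and 75.9 TPM. Of 24 genes for RET adaptors and effectors, 18 were above 3 TPM in a pool, with 7 higher and 11 lower in the alum + KLH pool and a median log2 ratio of -0.02. The highest were Stat3, a transcription factor, at 188.0 and 166.1 TPM, the adaptor gene Grb2 at 139.7 and 133.4 TPM, and Pik3r1, a regulatory subunit of PI3-kinase, at 132.4 and 136.2 TPM. Shank3, whose product binds the tail of RET9, was at 0.597 and 0.556 TPM, and was named after its values were seen.

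Of 9 genes that restrain RET signalling or receptor kinases in general, 7 were above 3 TPM and their median log2 ratio was 0.03. Cd2ap, an adaptor for receptor endocytosis, was at 178.8 and 178.1 TPM. The MAP kinase phosphatase gene Dusp6 was at 79.6 and 90.3 TPM and Spry2, a feedback inhibitor of receptor kinases, at 45.1 and 48.6 TPM. Of 8 transcription factors of sensory neurons, 5 were above 3 TPM, with a median log2 ratio of 0.06. Pou4f1 was at 278.0 and 290.5 TPM, Isl1 at 145.2 and 152.7 TPM, and Runx1, known to be required for the nonpeptidergic nociceptor fate, at 70.1 and 67.0 TPM. Among 3 ETS factors of the kind that RET signalling induces in other tissues, Etv1 was at 172.9 and 232.2 TPM, Etv5 at 62.9 and 60.3 TPM, and Etv4 at 0.330 and 0.283 TPM. The log2 ratio of Etv1 was 0.42, beside an SD of 0.21 among genes of like abundance. Of the 7 markers of large-diameter NF neurons above 3 TPM, 4 were higher and 3 lower in the alum + KLH pool, with a median of 0.01. The highest ratios in this list were 0.84 for Spp1 and 0.50 for Pvalb, named after its values were seen. The part of these markers in the value of Etv1 was not tested.

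Markers of the neuron classes that carry these receptors were read in the same libraries. Of the 14 NP (nonpeptidergic) nociceptor genes 13 were above 3 TPM, and all 13 were lower in the alum + KLH pool, with a median log2 ratio of -0.17 and a range of -0.69 to -0.03. Lower values were not particular to this list: 56.4% of all genes were lower, as were all 7 satellite glia genes and 9 of the 11 pan-neuronal genes. The summed level of the NP genes was 3148.2 TPM in the alum pool and 2808.3 TPM in the other, a ratio of 0.892. Among them P2rx3, an ATP-gated channel gene, was at 285.7 and 253.8 TPM, Scn11a, a sodium channel gene, at 374.3 and 330.2 TPM, and Cd55, a complement regulator gene, at 1652.0 and 1478.8 TPM. The 4 genes of TH low-threshold mechanoreceptors above 3 TPM were also lower, with a median of -0.17, among them Piezo2, Fam19a4 and Slc17a8. These medians stand beside the ratio of -0.17 for Gfra2, a receptor gene known from both classes. Whether they have a part in it was not tested, and in pooled tissue fewer neurons of a class cannot be told apart from less RNA per neuron.

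The 7 PEP (peptidergic) nociceptor genes, among them Calca, Calcb and Tac1, were all above 3 TPM and had a median log2 ratio of 0.01, beside -0.16 for Gfra3. In the NF list of large-diameter neurons, 7 of 8 genes were above 3 TPM with a median of 0.01, beside 0.07 for Gfra1. Spp1 was the highest of this list in ratio, at 196.1 and 352.4 TPM, while Nefh was at 1020.7 and 973.5 TPM and Calb1 at 197.5 and 217.6 TPM. All 11 pan-neuronal genes were above 3 TPM, including Nefl, Snap25 and Stmn2, with a median of -0.06 and a summed level of 17316.0 and 17084.6 TPM.

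**Figure D4:**
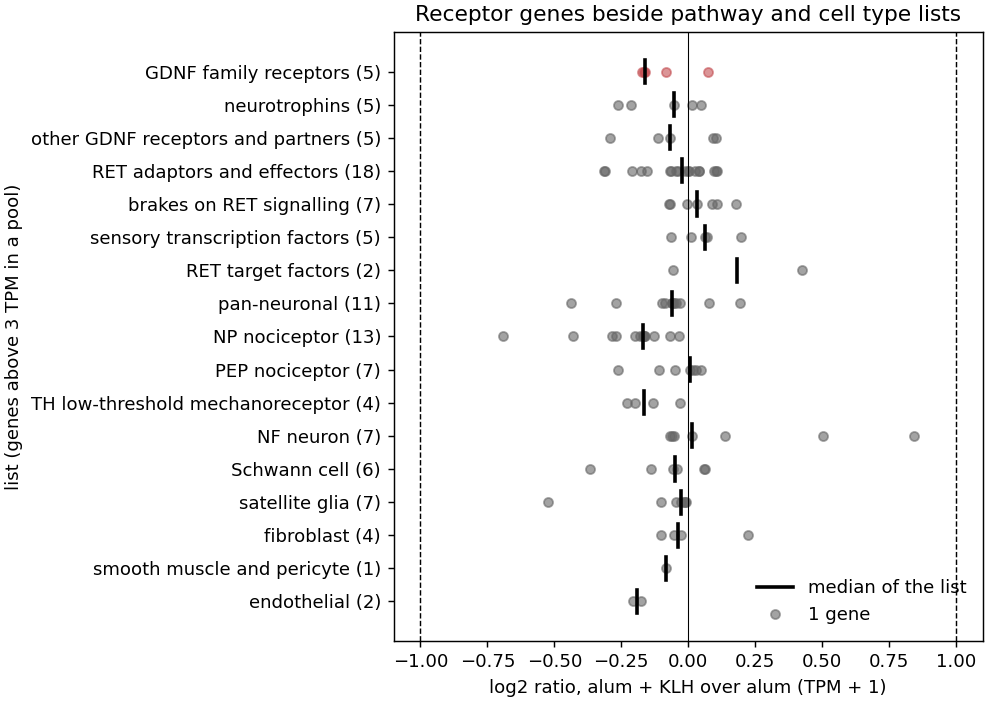
Each point is the log2 ratio of alum + KLH over alum for 1 gene above 3 TPM in a pool, by list, with the number of such genes in brackets and a bar at the median. The median of the 5 receptor genes is -0.16, that of the NP nociceptor genes -0.17 and that of the PEP nociceptor genes 0.01, and 0 of the points passes the dashed lines at 2-fold.

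The preparations also held RNA of glia, a known source of some GDNF family ligands. Of 9 Schwann cell genes 6 were above 3 TPM, with a summed level of 2174.3 and 2134.5 TPM and Pmp22 and S100b the highest. All 7 satellite glia genes were above 3 TPM, with 1594.0 and 1477.6 TPM in all and Fabp7 and Glul the highest in both pools. Ednrb was at 114.3 and 113.1 TPM and Apoe, named after its values were seen, at 131.9 and 91.5 TPM, a log2 ratio of -0.52. The Apoe ratio was the lowest of the satellite glia list, whose median was -0.03. Of the fibroblast genes 4 of 6 were above 3 TPM, with 110.4 and 109.0 TPM in all and Dcn, Apod and Lum the highest. Of 5 smooth muscle and pericyte genes 1 was above 3 TPM, Rgs5, and of 6 endothelial genes 2 were, Emcn and Cdh5. Macrophage genes, 5 in all, and B lymphocyte genes, 4 in all, had 0 above 3 TPM. The GDNF family ligand genes were below 3 TPM in libraries in which Schwann cell and satellite glia markers were detected.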

How the data were processed

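RNA-seq was performed by the authors on 2 stranded mRNA libraries, each from the DRG neurons of 10 pooled mice. After trimming with cutadapt, reads were assigned by kallisto to annotated mouse transcripts of the mm10 build. Tool versions are not given in the sources used here. The deposited tables hold TPM for each RefSeq transcript, as computed by the authors. kallisto divides reads among similar transcripts, so single transcripts are less certain than gene sums, and short rows are the most affected. The study states a minimum read number per library, but TPM gives no reads per row, so no interval or detection floor was computed.

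TPM was summed per symbol. Ratios used a pseudocount of 1 TPM. Genes that passed 3 TPM in either pool were compared, and the counted difference was 2-fold. With 1 library per group there was no test. Named genes are all 9 members, the neurotrophin and GDF15 genes, and the 3 highest genes of each other list. A few genes of these lists are counted in their lists but not reported here by name. The members and lists were chosen with earlier results of these data known. Gene models were taken from GENCODE M21, and all 23 member transcripts were paired with one of 16 models through its RefSeq table. Alternatives were pseudocounts of 0.1 and 0.5 TPM, thresholds of 1 and 10 TPM, no filter, and the highest transcript of each gene. As further alternatives, values were rescaled to the median ratio of genes above 3 TPM in both pools (0.987) or of pan-neuronal genes (0.960). The calculations, in Python 3.11.15 with numpy 2.4.6 and pandas 2.3.3, were tested on simulated data.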

Additional observations from a re-analysis of the deposited data

How the results depend on the processing

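Each receptor gene kept the sign of its ratio under every pseudocount and rescaling, with ranges over all alternatives of -0.08 to -0.02 for Ret, 0.07 to 0.13 for Gfra1 and -0.17 to -0.11 for Gfra3. Rescaling to pan-neuronal genes gave -0.11 for Gfra2 and 0.13 for Gfra1. The number of members above the threshold was 4 in each pool at 10 TPM, 5 and 6 at 1 TPM, and 5 and 4 on the highest transcript. The highest transcript alone gave 0.02 for Gfra2 and -1.02 for Gfra4. Thus 1 member was then at least 2-fold apart, through a transcript above 3 TPM in the alum pool only. Counting transcripts one by one, chosen after seeing the data, also gave 1. With a threshold of 10 TPM, 25 genes were at least 2-fold higher and 49 lower, against 81 and 110 at 3 TPM. Fewer genes pass 10 TPM, but their number was not computed, so these counts cannot be read as shares. With 1 library per group no replicate could be left out. No paired analysis was possible because each group has 1 library. The reads behind each ligand value are not known from TPM.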
